A study of Mus musculus with 6 samples.

Results

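A set of 10 genes that sense oxygen or answer to it through the hypoxia-inducible factor (HIF) was followed in the ischemic retina, chosen by name among the 32285 genes of the deposited count table. They are the alpha subunits Hif1a, Epas1 and Hif3a, the partner subunit Arnt, the prolyl hydroxylases Egln1, Egln2 and Egln3, the asparaginyl hydroxylase Hif1an, the ubiquitin ligase subunit Vhl and the HIF-induced gene Ankrd37. The choice was made with earlier results of these libraries known, and Ankrd37 is in the paper's own list of changed genes. All 10 were among the 20021 genes tested, those whose counts summed to 10 or more over the libraries, and the lowest count of any of them in a retina was 181. Bulk RNA sequencing had been performed on 3 OIR-CIH and 3 OIR-Norm retinas of wild-type C57BL/6J mice at PN18. All pups, controls included, had been kept with their mothers at 75% O2 for 5 days from PN8, which obliterates the central retinal capillaries (oxygen-induced retinopathy, OIR), and left this atmosphere at PN13. OIR-Norm pups then lived in room air with the gas flow and noise of the apparatus, whereas OIR-CIH pups underwent chronic intermittent hypoxia (CIH), 266 daily cycles over 10 h between 20.95% and 5% O2, each of 135 s. No retina without OIR and none with CIH alone was analysed here, so that the values compare CIH with room air in an already ischemic retina. The paper reports a larger avascular area at PN18 in OIR-CIH than in OIR-Norm retinas. The groups thus differed in more than the oxygen cycles, and the part of each in the values was not tested.

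As background, HIF is a dimer of an oxygen-labile alpha subunit and a stable beta subunit. In oxygen, prolyl hydroxylases of the EGLN (PHD) family modify the alpha subunit, which lets VHL bind it and send it for degradation, and the asparaginyl hydroxylase FIH, product of Hif1an, blocks its binding to coactivators. In hypoxia both reactions slow, the alpha subunit accumulates as a protein, and the dimer binds a short core motif near genes for glucose use, vessel growth and iron uptake. Some of the genes that HIF switches on, Egln3, Egln1, Hif3a and Ankrd37 among them, belong to the pathway itself. In the ischemic retina HIF is best known as the driver of Vegfa. RNA levels do not show how much HIF-alpha protein was present or active.

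Total counts were between 26289905 and 38010151 per retina, and those of the groups overlapped. Each retina held Xist (298 to 1653 CPM, the count relative to a library size that edgeR had scaled with its TMM factors) together with RNA of 4 Y-linked genes (summed 57.3 to 184 CPM). Female and male RNA were thus present in every library, whereas the paper describes 3 eyes per group. How many animals each library stands for is unknown. A library is called a retina here after its label, and n is a number of libraries. The mix of the sexes was not compared between the groups. Rod markers fitted the label, with a summed 46640 to 61375 CPM over 8 genes. The library of OIR-Norm replicate 2 stood apart by its lens RNA, with 398 CPM summed over 7 lens genes against 15.6 to 70.0 CPM in the other retinas, and the fits and ratios below were also computed without it. In bulk tissue, fewer cells of a type and less RNA per cell cannot be told apart.

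Of the 10 genes, Ankrd37 alone was called by the rule given below, and it was higher in OIR-CIH. Its level was 36.5, 34.8 and 33.5 CPM in OIR-CIH and 20.2, 22.8 and 22.9 CPM in OIR-Norm. The lowest OIR-CIH retina thus lay well above the highest OIR-Norm retina, and the retinas of a group differed little. Ankrd37 (ENSMUSG00000050914) encodes a small ankyrin-repeat protein, a kind of protein that FIH can hydroxylate, and is known as a direct HIF target. The means were 34.9 ± 1.47 CPM (SD, n = 3) in OIR-CIH and 21.9 ± 1.54 CPM (SD, n = 3) in OIR-Norm, a difference of 59.2% with a 95% interval from 39.3% to 82.0%. The log2 fold change was 0.67 (standard error 0.09), with an adjusted p of 0.00508 by edgeR's quasi-likelihood test with Benjamini-Hochberg adjustment over all genes tested, of which it ranked 20 by p. A gene was called when its adjusted p was under 0.05 and its log2 fold change exceeded 0.5 or lay under -0.5. Over all genes 0.315% were called, 0.0999% as higher and 0.215% as lower in OIR-CIH. Of the 10 genes 1 was therefore called, and 9 were not.

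**Figure D1:**
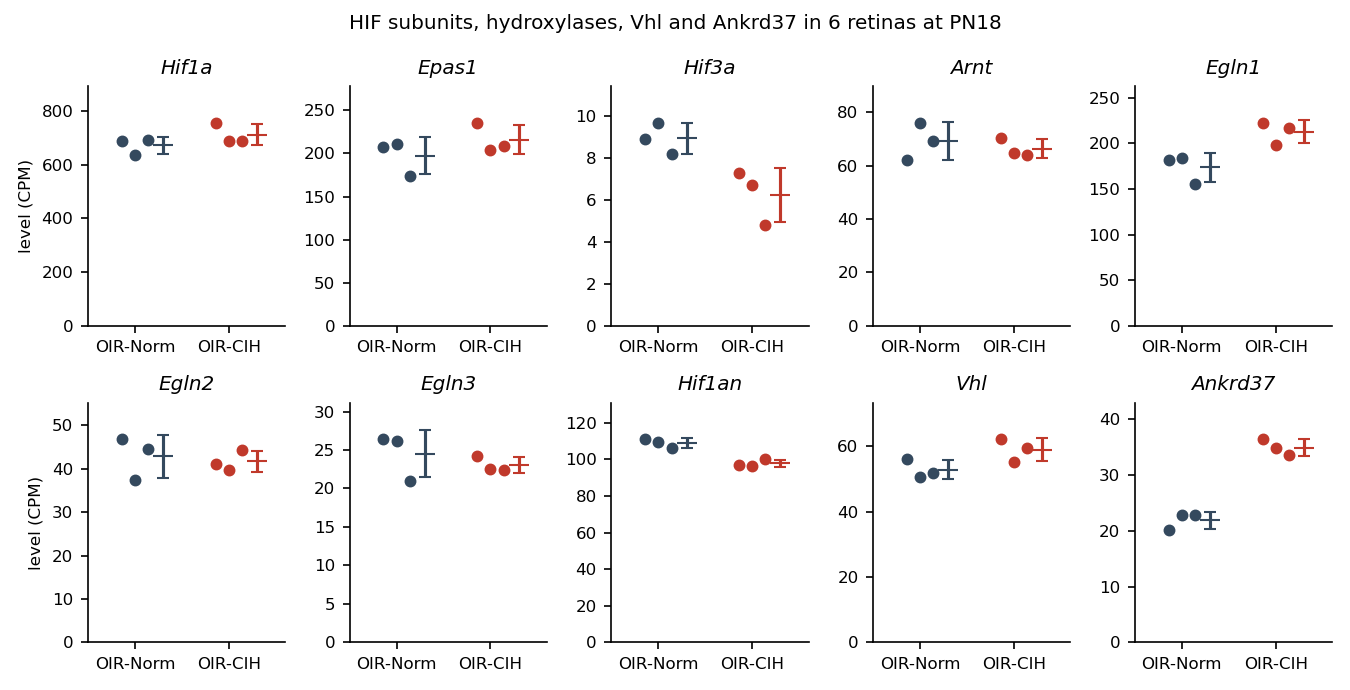
Level of each of the 10 genes (vertical axis, CPM from 0) in each retina, OIR-Norm in dark blue and OIR-CIH in red, with the mean and SD of 3 retinas beside the points. The OIR-CIH retinas of Ankrd37 (33.5 to 36.5 CPM) lie above its OIR-Norm retinas (20.2 to 22.9 CPM), while those of Hif1a, Epas1, Arnt, Egln2, Egln3 and Vhl overlap.

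Ankrd37 passed both thresholds in all 14 alternative fits, with log2 fold changes from 0.61 to 0.70 and adjusted p from 7.203e-08 (DESeq2) to 0.0478 (edgeR without OIR-CIH replicate 1). Its log2 fold change was 0.70 when the library with lens RNA was left out. The gene lies on chromosome 8 (GRCm38, 45996902 to 46005707, minus strand in GENCODE M21), and its exons share 349 bases with Lrp2bp and 57 with Ufsp2 on the opposite strand. The sources used here do not state which strand setting was kept in counting, and without strand, reads of these stretches cannot be assigned. Lrp2bp had 10.8 ± 1.27 CPM in OIR-CIH and 12.1 ± 1.09 CPM in OIR-Norm (SD, n = 3 each), and Ufsp2 had 75.6 ± 5.72 and 71.7 ± 3.51 CPM (SD, n = 3 each). Neither neighbor was called (adjusted p of 0.635 and 0.715 by edgeR), and the groups overlapped for both. Rod markers, as a list, were higher by sign in OIR-CIH in 8 of 8 genes with 0 called. Of all genes tested 49.5% were higher by sign and 0.315% were called. The summed level of the rod markers was 52849.9 to 61375 CPM in OIR-CIH and 46640 to 61206 CPM in OIR-Norm. Their part in the Ankrd37 difference was not tested.

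The bases before the transcription start are shown for Ankrd37, the called gene, and for the prolyl hydroxylases, for comparison. They were read from RefSeq promoters (GRCm38.p6), 5′ to 3′ on the gene's strand, with the core of the HIF binding motif in capitals (ACGTG or GCGTG on either strand, so that the opposite strand reads CACGT or CACGC). All 4 genes are on the minus strand, at chr8:45999851-46000100 for Ankrd37, chr8:124949325-124949504 for Egln1, chr7:27166803-27167052 for the upstream start of Egln2 and chr12:54203875-54204124 for Egln3. The Egln1 window stops at position -71, since GENCODE M21 places its remaining 70 bases in an exon. The Ankrd37 window is printed whole, although 17 of its bases are exonic in GENCODE M21, and it lies inside the span that GENCODE M21 gives the gene, whose 5′ end at 46005707 is upstream of this window.
Ankrd37: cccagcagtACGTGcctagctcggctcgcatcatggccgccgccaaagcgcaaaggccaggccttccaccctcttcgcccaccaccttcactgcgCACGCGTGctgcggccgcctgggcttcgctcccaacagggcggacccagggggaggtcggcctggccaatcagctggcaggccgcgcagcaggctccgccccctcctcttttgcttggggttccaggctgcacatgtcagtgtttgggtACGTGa
Egln1: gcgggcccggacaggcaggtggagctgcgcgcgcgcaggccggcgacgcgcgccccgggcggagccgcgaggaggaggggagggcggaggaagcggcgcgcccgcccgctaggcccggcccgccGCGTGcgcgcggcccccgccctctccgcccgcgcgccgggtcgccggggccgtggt
Egln2: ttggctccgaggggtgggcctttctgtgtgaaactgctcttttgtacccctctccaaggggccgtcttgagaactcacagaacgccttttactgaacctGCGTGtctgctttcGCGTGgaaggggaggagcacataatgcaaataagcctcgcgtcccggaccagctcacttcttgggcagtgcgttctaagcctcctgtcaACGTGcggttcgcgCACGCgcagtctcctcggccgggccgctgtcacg
Egln3: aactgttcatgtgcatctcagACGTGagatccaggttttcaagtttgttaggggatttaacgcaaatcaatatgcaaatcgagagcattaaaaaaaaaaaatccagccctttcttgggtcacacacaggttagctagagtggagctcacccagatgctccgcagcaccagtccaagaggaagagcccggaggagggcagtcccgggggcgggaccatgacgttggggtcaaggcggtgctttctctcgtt

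Ankrd37 had cores at 4 positions in these 250 bases, starting at -241, -155, -152 and -6 from the start, the middle pair overlapping on opposite strands. Egln1 had 2, a GCGTG at -126 and, in the part not printed, an ACGTG at -68. Egln2 had 4 at its upstream start and 1 at a second start further in the gene, and Egln3 had 1, at -229. Egln2 thus held as many at its upstream start as Ankrd37, and its groups overlapped. Whether the cores bear on the differences between the groups was not tested. Of the other genes, Hif1a had 3, of which 2 were the strands of 1 CACGTG, Hif3a had 2, Arnt had 1, and Hif1an and Vhl had 0. The Hif1a window (chr12:73907617-73907866) lies inside the span that GENCODE M21 gives the gene, whose 5′ end is at 73901375. A stretch just after this start was not found in a GENCODE M21 transcript of Hif1a. Epas1 had no entry in the promoter table. At least 1 core was present in 38.6% of the 32851 promoters of the same length in the table, and cores at 2 or more positions in 16.7%. The core holds a CpG, and 63.8% of promoters with at least 60% GC had one. The window of Ankrd37 had 67.6% GC, that of Egln1 86%, and the median over all promoters was 52.4%. A match shows the letters only, and no binding was measured.

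**Figure D2:**
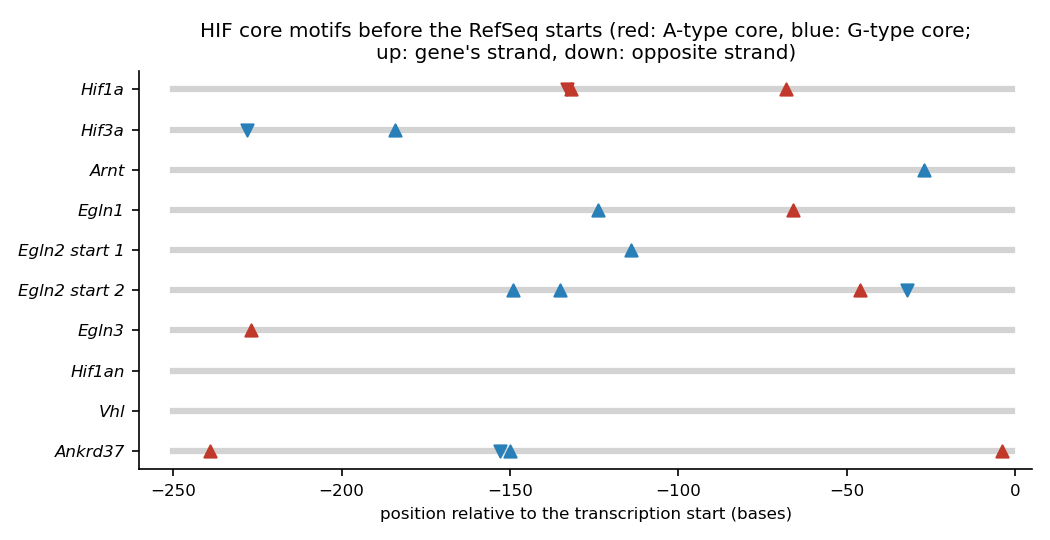
Position of each HIF core motif (horizontal axis, bases from the RefSeq transcription start) in the 250 bases before the starts of 9 genes, red for the A-type and blue for the G-type core, pointing up on the gene's strand and down on the opposite strand. Ankrd37 and the upstream start of Egln2 (start 2) each have 4 cores, and Hif1an and Vhl have 0.

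The alpha subunits supply the oxygen-labile part of HIF. Hif1a, the broadly expressed subunit (chr12:73901375-73947530, plus strand, GRCm38 as for all positions), was at 756, 689 and 688 CPM in OIR-CIH and 689, 635 and 692 CPM in OIR-Norm. One OIR-CIH retina was above all others and the remaining retinas of both groups were intermingled. Its log2 fold change was 0.08 with a 95% interval from -0.11 to 0.28 (adjusted p of 0.740 by edgeR). The antisense gene Gm15283 shares 330 of its exonic bases and had 9.24 to 12.7 CPM in OIR-CIH and 7.92 to 11.3 CPM in OIR-Norm. Epas1 encodes HIF-2 alpha, prominent in endothelial cells and glia (chr17:86753700-86833410, plus strand), and was at 236, 204 and 209 CPM in OIR-CIH and 208, 211 and 173 CPM in OIR-Norm. These retinas overlapped too, and the log2 fold change was 0.13 (95% interval from -0.07 to 0.33, adjusted p of 0.588 by edgeR). In the same libraries 9 of 10 endothelial markers were lower by sign in OIR-CIH, with 0 called and a summed 288 to 334 CPM against 293 to 391.9 CPM in OIR-Norm. For glia, 6 astrocyte markers summed to 182 to 221 CPM in OIR-CIH and 249 to 348 CPM in OIR-Norm, with 5 lower by sign and 1 called. Over 8 Müller glia markers the sums were 4222 to 5142.5 and 4197 to 4750 CPM, with 4 lower by sign and 0 called. Of all genes tested 49.5% were higher by sign and 0.315% were called. How these lists bear on Epas1 was not tested.

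Hif3a, whose shorter products can restrain the other alpha subunits (chr7:17031507-17062427, minus strand), was the scarcest of the 10 genes. It was at 7.26, 6.69 and 4.79 CPM in OIR-CIH and 8.89, 9.68 and 8.20 CPM in OIR-Norm. Every OIR-CIH retina was below every OIR-Norm retina, with OIR-CIH replicate 3 lowest. The log2 fold change of -0.52 (standard error 0.16, 95% interval from -0.88 to -0.17) lay beyond the fold threshold, but the adjusted p of 0.243 by edgeR did not pass, so that no change was called. Between 181 and 276 reads per retina were counted on it. Over the 14 alternative fits its adjusted p was between 0.0948 and 0.502, and without OIR-CIH replicate 3 its log2 fold change was -0.36.

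Arnt, the beta subunit that all alpha subunits need for DNA binding (chr3:95434388-95497240, plus strand), was at 70.4, 64.7 and 64.2 CPM in OIR-CIH and 62.1, 76.1 and 69.3 CPM in OIR-Norm. The OIR-CIH values fell inside the range of the OIR-Norm values, and the log2 fold change was -0.06 (95% interval from -0.24 to 0.12, adjusted p of 0.803 by edgeR). The balance between the main alpha subunits does not depend on library scaling and was compared as the log2 ratio of Epas1 to Hif1a counts. It was -1.68, -1.76 and -1.72 in OIR-CIH and -1.73, -1.59 and -2.00 in OIR-Norm. The OIR-Norm retinas spread on either side of the OIR-CIH retinas, and the difference in means of 0.05 gave p = 0.8 in an exact two-sided permutation test, in which 3 retinas against 3 cannot reach below 0.1.

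The prolyl hydroxylases, the oxygen sensors proper, are described one by one. Egln1 (PHD2), held to be the main hydroxylase of HIF-1 alpha in most cells (chr8:124908587-124949324, minus strand), was at 223, 198 and 217 CPM in OIR-CIH and 182, 184 and 155 CPM in OIR-Norm. All OIR-CIH retinas were above all OIR-Norm retinas. The means were 213 ± 12.7 and 174 ± 15.8 CPM (SD, n = 3 each), a difference of 22.4% with a 95% interval from 7.62% to 39.2%. Its unadjusted p was 0.0049, but its adjusted p of 0.217 by edgeR did not pass, and with the upper end of the interval at 0.48 on the log2 scale it stayed under the fold threshold. Adjusted p ranged from 0.0661 to 0.538 over the alternative fits, the lowest with DESeq2.

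Egln2 (PHD1), which is not induced by hypoxia in most cells (chr7:27158658-27166802, minus strand), was at 41.1, 39.7 and 44.4 CPM in OIR-CIH and 46.9, 37.4 and 44.6 CPM in OIR-Norm, a log2 fold change of -0.04 (95% interval from -0.24 to 0.16, adjusted p of 0.885 by edgeR). Egln3 (PHD3), the form most strongly induced by HIF in many cell types (chr12:54178981-54203860, minus strand), was at 24.2, 22.5 and 22.4 CPM in OIR-CIH and 26.4, 26.2 and 21.0 CPM in OIR-Norm. The lowest of all 6 retinas was an OIR-Norm retina, the groups overlapped, and the log2 fold change was -0.09 (95% interval from -0.32 to 0.14, adjusted p of 0.758 by edgeR). The interval excludes a rise of Egln3 as large as the 59.2% of Ankrd37, since its upper end was 10.1%.

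Per exon length, Egln1 made up most of the prolyl hydroxylase RNA. Its share was 72.3%, 70.9% and 71.3% in OIR-CIH and 65.5%, 68.8% and 64.5% in OIR-Norm. Egln2 held 17.1% to 18.7% in OIR-CIH and 17.98% to 23.8% in OIR-Norm. The share of Egln3 was 10.6%, 10.9% and 9.95% in OIR-CIH against 12.8%, 13.2% and 11.8% in OIR-Norm. All OIR-CIH retinas were thus below all OIR-Norm retinas in the Egln3 share, with means of 10.5% ± 0.476 and 12.6% ± 0.773 (SD, n = 3 each). Exact permutation of the retinas (two-sided) yielded p = 0.1, the lowest value possible with 3 against 3, so that the threshold of 0.05 could not be reached. The Egln1 share did not overlap between the groups either, with OIR-CIH above, and was not tested. A share depends on the levels of all the Egln genes. Egln1 had 59.1 CPM per kb in OIR-CIH and 48.3 in OIR-Norm. Egln3 itself had 8.66 and 9.22 CPM per kb, and its groups overlapped.

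Hif1an (chr19:44562850-44576274, plus strand) was at 97.0, 96.6 and 100.1 CPM in OIR-CIH and 111, 109.6 and 106 CPM in OIR-Norm. The groups were apart with little spread in either, yet the difference was small, at -10.1% with a 95% interval from -18.5% to -0.742% (unadjusted p of 0.0371, adjusted p of 0.351 by edgeR). Vhl, which recognizes the hydroxylated alpha subunit (chr6:113623959-113631633, plus strand), was at 62.2, 55.3 and 59.5 CPM in OIR-CIH and 56.1, 50.6 and 51.8 CPM in OIR-Norm. The lowest OIR-CIH retina and the highest OIR-Norm retina crossed, and the log2 fold change was 0.16 (95% interval from -0.01 to 0.32, adjusted p of 0.396 by edgeR).

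Read as a group, 5 of the 10 genes were higher and 5 lower by sign, with a median log2 fold change of 0.02 against 0.00 over all genes tested. An unadjusted p under 0.05 was found for 4 genes, against 13.2% of all genes tested. They were Ankrd37 and Egln1 on the higher side (6.2% of all genes) and Hif3a and Hif1an on the lower side (7.01%). Groups that did not overlap were found for those 4 genes, OIR-CIH being above for the first pair and below for the second. Of all genes 18.4% had such groups, with OIR-CIH above for 9.12% and below for 9.26%. The 95% interval lay within 0.5 of 0 on the log2 scale for 8 genes, the exceptions being Ankrd37 and Hif3a. Since the 10 genes were chosen with earlier results of these libraries known, these counts are a description.

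**Figure D3:**
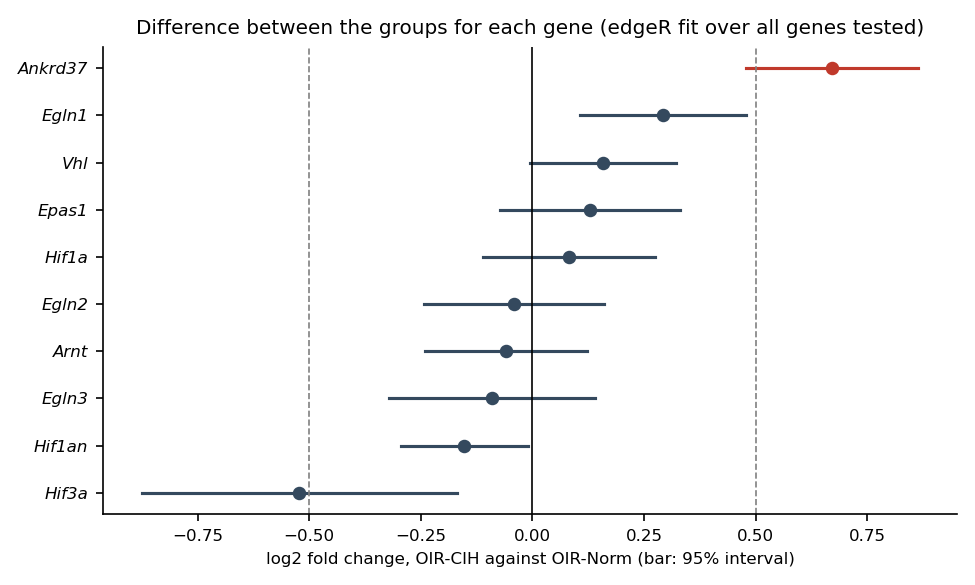
Log2 fold change of OIR-CIH against OIR-Norm (horizontal axis) for each gene, with its 95% interval from the edgeR fit; dashed lines mark the fold threshold of 0.5, and the called gene is red. Ankrd37 lies at 0.67 and Hif3a at -0.52, and the intervals of the other 8 genes stay between the dashed lines.

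Levels can be ordered only per length, here as CPM per kb of merged exons in GENCODE M21. In OIR-Norm, Hif1a was highest at 114 ± 5.46 (SD, n = 3) CPM per kb. Egln1 followed with 48.3 ± 4.41 (SD, n = 3) and Epas1 with 35.3 ± 3.76 (SD, n = 3). These 3 genes stood at or above the 94.4th percentile of all genes tested, and over the 6 retinas each was apart from the next in the order. Vhl, Hif1an, Egln2 and Ankrd37 were close together, at 17.6, 16.5, 15.3 and 14.2 CPM per kb. Vhl stayed just above Hif1an in all retinas, but Hif1an and Egln2 overlapped, as did Egln2 and Ankrd37. Egln3 and Arnt were lower, at 9.22 and 8.64, and could not be told apart. Hif3a came last at 1.33 ± 0.111 (SD, n = 3) CPM per kb, near the 38.5th percentile, and made up 0.884% of the alpha subunit RNA in OIR-Norm and 0.579% in OIR-CIH. In OIR-CIH, Ankrd37 at 22.7 ± 0.953 CPM per kb (SD, n = 3) lay above Vhl at 19.7 ± 1.15 (SD, n = 3). Egln2 and Hif1an also changed places by their means there, at 14.9 ± 0.851 and 14.8 ± 0.290 CPM per kb (SD, n = 3 each), and overlapped.

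**Figure D4:**
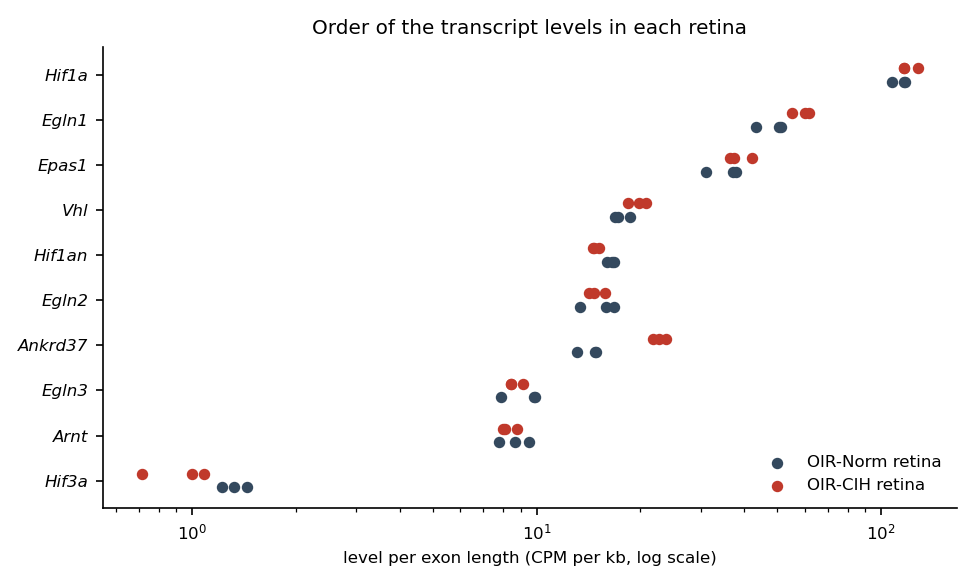
Level per exon length (horizontal axis, CPM per kb, log scale) of each gene in each retina, ordered by the OIR-Norm mean from top to bottom. Hif1a is at the top with 108 to 128 CPM per kb and Hif3a at the bottom with 0.714 to 1.44, and Ankrd37 is the gene in which the colors separate most.

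Further genes of the pathway were taken from 5 lists. Over all genes tested 0.315% were called, so that 0 called says little for lists this short. Of 18 genes of the VHL ligase and of HIF stability, 0 were called, 16 were higher and 2 lower by sign, and the median log2 fold change was 0.14, against 0.00 over all genes tested, where 49.5% were higher by sign. Groups did not overlap for 8 of the 18, against 18.4% of all genes tested. The lowest p were those of Commd1, which binds HIF-1 alpha (89.8 to 101 CPM against 60.02 to 82.9 CPM), Rack1, an oxygen-independent route to its degradation (280.3 to 286 against 189 to 259.8 CPM), and Siah1a, a ubiquitin ligase of EGLN proteins (48.5 to 49.9 against 39.8 to 43.0 CPM, OIR-CIH given first). Their adjusted p by edgeR were 0.217, 0.223 and 0.227. Of 10 coactivators and competitors of HIF, 0 were called, with a median of 0.03 that did not keep its sign when OIR-Norm replicate 3 was left out. Cited2, a HIF-induced protein that competes with HIF for the coactivator p300, had 177 ± 12.3 CPM in OIR-CIH and 146 ± 17.0 CPM in OIR-Norm (SD, n = 3 each). Ep300, which encodes p300, had 160.4 ± 9.94 and 184 ± 4.25 CPM, and Cdk8 had 66.5 ± 4.29 and 60.6 ± 1.34 CPM (SD, n = 3 each). Their adjusted p by edgeR were 0.267, 0.304 and 0.470.

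Other bHLH-PAS genes are relatives of the HIF subunits, several of which share ARNT as partner. Of 12, Sim1 had 0 counts and 11 were tested, with 0 called and a median of -0.01. Groups did not overlap for 3 of the 11, against 18.4% of all genes tested, of which 0.315% were called. The aryl hydrocarbon receptor Ahr was at 78.9, 79.5 and 77.1 CPM in OIR-CIH and 94.1, 94.4 and 93.8 CPM in OIR-Norm. The groups were apart with very little spread in either, and the log2 fold change was -0.26 (standard error 0.06), but the adjusted p of 0.142 by edgeR did not pass. Its repressor Ahrr had 14.5 ± 1.09 against 18.3 ± 1.93 CPM and the circadian factor Clock 146 ± 6.61 against 164 ± 4.27 CPM (SD, n = 3 each), with adjusted p of 0.276 and 0.347 by edgeR. Of 25 other dioxygenases that use oxygen, among them collagen hydroxylases and histone and DNA demethylases, 0 were called. Groups did not overlap for 6 of the 25, and the median was 0.02. Jmjd6, P4htm and Kdm5a had the lowest p, and differed by 0.29, 0.24 and -0.23 on the log2 scale (edgeR's adjusted p 0.217, 0.226 and 0.248). Jmjd6 encodes a nuclear lysyl hydroxylase and Kdm5a a histone demethylase. P4htm encodes a membrane-bound prolyl hydroxylase that can act on HIF-1 alpha, and its OIR-CIH retinas (71.0, 76.3 and 77.1 CPM) were above its OIR-Norm retinas (63.1, 60.2 and 66.9 CPM).

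Of 30 HIF target genes outside the 10, 2 rose and 0 fell past the thresholds, 24 were higher and 6 lower by sign, and the median log2 fold change was 0.18. It was 0.09 when OIR-CIH replicate 1 was left out and 0.10 when OIR-Norm replicate 3 was. Groups did not overlap for 11 of the 30. Over all genes tested, 0.0999% were called higher, 49.5% were higher by sign and 18.4% had groups that did not overlap. Tfrc, the transferrin receptor of cellular iron uptake, was at 244, 229.8 and 226 CPM in OIR-CIH and 158, 178 and 150.02 CPM in OIR-Norm. The difference was 0.53 on the log2 scale with a standard error of 0.08, and edgeR's adjusted p was 0.0131. Bhlhe40, a transcriptional repressor that also belongs to the clock, was at 81.9, 74.7 and 81.4 CPM against 55.3, 62.7 and 46.5 CPM. It differed by 0.53 on the log2 scale, with a standard error of 0.10 and an adjusted p of 0.0361 in edgeR. Hilpda, a lipid droplet protein, had 24.8 ± 1.05 and 17.7 ± 0.997 CPM (SD, n = 3 each), and with a log2 fold change of 0.48 and an adjusted p of 0.0505 by edgeR it passed neither threshold. Vegfa was at 640, 570 and 499 CPM in OIR-CIH and 446, 618 and 423 CPM in OIR-Norm. Its groups overlapped, and it was not called (log2 fold change of 0.20, adjusted p of 0.569 by edgeR). Tfrc and Bhlhe40 are, like Ankrd37, in the paper's own list of changed genes. The list of HIF targets was chosen with earlier results of these libraries known, so that its counts are a description.

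**Figure D5:**
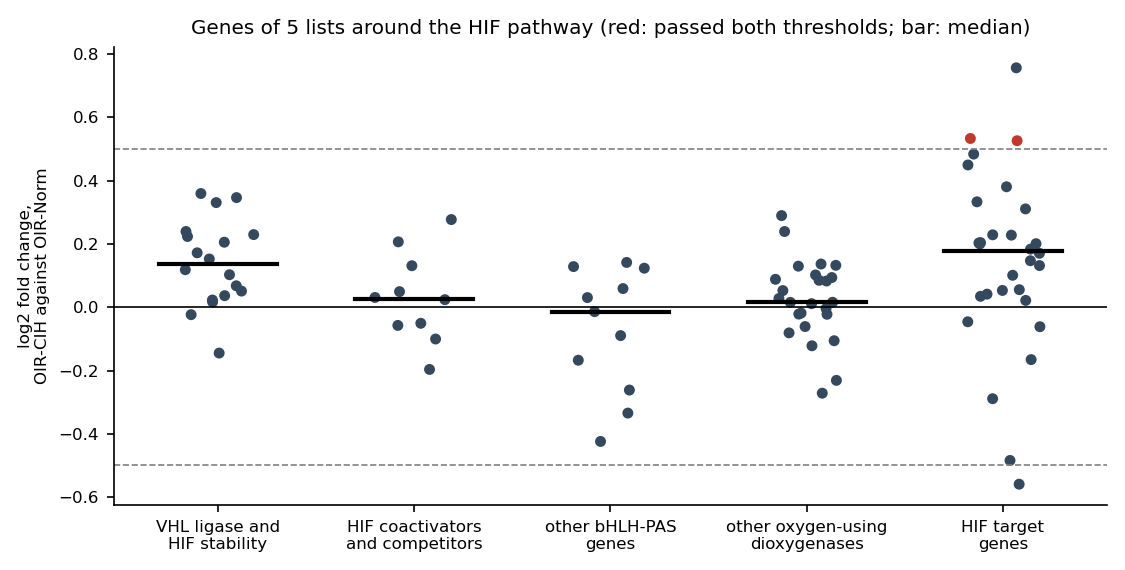
Log2 fold change of OIR-CIH against OIR-Norm (vertical axis) for each gene tested in 5 lists, with red points for genes past both thresholds (dashed lines mark the fold threshold of 0.5) and a bar at each median. The medians are 0.14, 0.03, -0.01, 0.02 and 0.18 from left to right, and both red points, Tfrc and Bhlhe40, are HIF target genes. The highest point, at 0.76, did not pass the adjusted p.

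The genes whose levels followed Ankrd37 most closely over the 6 retinas, among 12057 other genes with a mean of at least 5 CPM, were Tfcp2, Prim1 and Fezf2. Their Pearson r on the log2(CPM + 0.5) scale was 0.995, 0.993 and 0.992, given as a description since the retinas form groups and share their scaling. Their log2 fold changes were 0.22, 0.20 and 0.33, each below the 0.67 of Ankrd37, and none was called.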

How the data were processed

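Libraries were made from 250 ng of retinal RNA with a strand-specific poly(A) kit. Reads were aligned and counted per gene by STAR 2.7.9a, and the authors deposited raw whole-number counts of 32285 genes for the 6 retinas. The paper's methods name Ensembl 105, the submitters' processing notes GRCm38; the strand setting of the counts is not given in the sources used here. Counts were taken as deposited; columns of no sample were absent. Gene names (32158 matched by identifier), positions and merged exon lengths came from GENCODE M21 (GRCm38), which may differ from the authors' annotation.

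Genes whose counts summed to 10 or more, the study's filter, were tested with edgeR 4.0.16 in R 4.3.3 (quasi-likelihood test, trimmed mean of M-values, Benjamini-Hochberg over 20021 genes). Standard errors were taken as the log2 fold change over the root of F. Single ratios were compared by exact two-sided permutation (scipy 1.17.1). The method was tested on simulated counts. Alternatives were DESeq2 1.42.0, limma 3.58.1 on log2(CPM + 0.5), limma-voom, other scalings and filters, a replicate block and leaving out each retina.

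The 10 genes and the lists were chosen with earlier results of these data known. Other genes named are, per pathway list, the 3 of lowest p, and the 3 most like the gene of lowest p. Vegfa and the neighbors overlapping Ankrd37 were added. Of 14 cell type lists, those other than rod, endothelial and lens had these medians of the log2 fold change: cone 0.11, Müller glia 0.01, astrocyte -0.42, microglia -0.27, pericyte and smooth muscle -0.48, ganglion cell 0.03, bipolar 0.05, amacrine and horizontal 0.19, pigment epithelium 0.28, red blood cell -0.51, muscle and sclera -0.04. Of their genes, Gfap was called, as lower. No pair of retinas within a group differed by as little as sampling noise. Where nothing says that libraries came from separate animals, p-values measure the spread between these libraries only.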

Additional observations from a re-analysis of the deposited data

How the results depend on the processing

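The alternatives were 8 other fits and 6 that left out 1 retina each. Ankrd37 was called in all 14, and none of the other 9 genes was called in any. Direction was kept in all 14 by 8 of the 10 genes; the exceptions lay near 0. Omitting 1 retina put Arnt between -0.14 and 0.0142 (the latter without OIR-Norm replicate 2) and Egln2 between -0.13 and 0.0202 (without OIR-Norm replicate 1). The number of genes called over the whole table, 63 (20 higher, 43 lower), was 135 with DESeq2 (34 higher, 101 lower) and 213 on testing all genes with any count (60 higher, 153 lower); the cause was not tested. Leaving out 1 retina gave from 35 to 104 calls, from 11 to 33 higher and from 24 to 88 lower. The lowest counts (35, 11 and 24) came without OIR-CIH replicate 1, the highest without OIR-Norm replicate 3 (104, with 88 lower) and without OIR-Norm replicate 1 (33 higher).

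No pairing by replicate number was seen: deviations from the group means gave r of 0.162, 0.143 and -0.238 between retinas of equal number. Between retinas of unequal number r was from -0.404 to 0.224. With 3 retinas per group these values cannot exclude a pairing. Under a replicate block the calls came to 84, 32 higher and 52 lower, 60 of them among the 63, and the block changed the call of none of the 10 genes.

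Leaving out 1 retina put the median of the VHL ligase list between 0.11 and 0.18, of the coactivator list between -0.0041 (without OIR-Norm replicate 3) and 0.0772 (without OIR-Norm replicate 1), of the bHLH-PAS list between -0.13 and 0.0339, of the dioxygenase list between 0.0064 and 0.10 and of the HIF target list between 0.09 and 0.22; limma-voom gave -0.0751 for the bHLH-PAS list, and library totals alone gave -0.0004 for the coactivator list. The log2 ratio of Epas1 to Hif1a differed between groups by -0.062 without OIR-Norm replicate 3 and by up to 0.14 otherwise. The Egln3 share was lower in OIR-CIH in all 6 of these, and with raw counts the difference was -1.83 percentage points. Hif3a, with 181 to 276 reads per retina, had the largest standard error of the 10 genes (0.16 on the log2 scale).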
